A study of Danio rerio and Aquarana catesbeiana with 12 samples.

Results

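Red blood cell genes were followed in RNA from the retinal pigment epithelium (RPE) of zebrafish, the pigmented layer behind the photoreceptors. Of the 7 genes sought by symbol, 6 had a record among the 18315 transcript records of the zebrafish table: the globin genes hbaa1, hbaa2 (listed as si:ch211-5k11.6) and ba1 (now hbba1), the anion exchanger gene slc4a1a, the heme synthesis gene alas2 and the regulator gene gata1a. The seventh, the beta globin gene ba1l, was not analysed here. The 3 hormone libraries came from RPE of zebrafish given thyroid hormone for 3 weeks, and the 3 vehicle libraries from RPE of zebrafish given the vehicle for the same time. Strain, age, dose and genotype are not given in the labels. Nothing in the labels ties replicates to separate fish, and the p-values below therefore reflect the spread between libraries, part or all of which may be technical.

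Red blood cells of fish keep their nucleus and carry RNA in the circulation. Their hemoglobin joins alpha and beta globin chains, each holding a heme group. The heme is made by a chain of enzymes whose first step in red cells is catalysed by the enzyme that alas2 encodes. The protein of slc4a1a, known as band 3, exchanges chloride for bicarbonate across the red cell membrane and anchors the membrane skeleton. The transcription factor encoded by gata1a turns on globin, heme and membrane genes as red cells form. The RPE lies against the vessels of the choroid, so dissected RPE can carry blood.

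Total counts per library ranged from 6647597, in hormone replicate 1, to 12530697, in hormone replicate 2. The RPE label was checked against 14 measured RPE marker genes, whose summed level was 20714, 52939 and 43966 CPM (counts relative to library totals scaled by TMM) in hormone libraries, against 17656, 17060 and 17593 CPM in vehicle libraries. Most of that sum in hormone libraries was rpe65a, at 12453, 32335 and 26093 CPM, against 7480, 7211 and 6688 CPM in vehicle libraries. DESeq2 called rpe65a itself higher with hormone (adjusted p = 0.000469), and edgeR did not (adjusted p = 0.426). The sum is thus no measure of RPE content alone. Of the 14 log2 fold changes of hormone over vehicle, 11 lay above 0 and 3 below. Among the 3, best1 had 210, 483 and 477 CPM in hormone libraries, against 592, 582 and 870 CPM in vehicle libraries. The mean log2 CPM of the 14 RPE genes was 8.16, 9.15 and 8.98 in hormone libraries, against 8.43, 8.34 and 8.37 in vehicle libraries. In that mean hormone replicate 1 was the lowest library, although its sum exceeded those of the vehicle libraries. Rod photoreceptor transcripts, from 16 measured genes, summed to 51167 to 62000 CPM with hormone and 76695 to 88158 CPM with vehicle. The samples thus held photoreceptor RNA as well. The mean log2 CPM of the 16 rod genes was 10.22, 9.45 and 9.71 in hormone libraries, against 10.17, 10.17 and 9.93 in vehicle libraries. By that measure hormone replicate 1 was the highest library. The part of these differences in the red cell levels was not tested.

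No red blood cell gene differed between hormone and vehicle in the quasi-likelihood test of edgeR, with adjusted p from 0.457 for slc4a1a to 0.959 for gata1a. All 6 fitted log2 fold changes of hormone over vehicle lay below 0, with a median of -1.32, against a median of 0.01 over all records, of which 48.3% lay below 0. Vehicle replicates 1 and 3 had the highest levels of all 6 genes, while vehicle replicate 2 was the lowest vehicle library for each gene. The 6 genes thus shared much of their library profile, and their 6 signs are not 6 separate results. In 5 of the 6 genes vehicle replicate 2 lay within or below the hormone range, and slc4a1a was the gene whose groups did not overlap. Over all records, 6.4% had all hormone libraries below all vehicle libraries. In bulk RNA, fewer red cells in a sample and less RNA per red cell cannot be told apart.

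The same test called 1 of the 18315 records, or 0.00546%. It called 105 without hormone replicate 1 and 0 without any of the other 5 libraries in turn. At an unadjusted p under 0.05 it had 3 of the 6 red cell genes, slc4a1a, hbaa2 and hbaa1, all lower with hormone, and 3.18% of all records were lower at that p. DESeq2 called slc4a1a and hbaa2 at adjusted p of 0.0441 and 0.04995, where 0.688% of all records were called lower. The authors' deposited table likewise marks slc4a1a and hbaa2, with adjusted p of 0.013 and 0.0091 computed from its p-values, where 0.41% of all records were lower past the threshold. Limma voom called 0 of the 6.

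The adult alpha globin gene hbaa1 had 674, 423 and 278 CPM in hormone libraries, against 1293, 493 and 1823 CPM in vehicle libraries. Hormone replicate 1 stood above vehicle replicate 2, so the groups overlapped. The group means were 458 ± 200.4 CPM with hormone and 1203 ± 670 CPM with vehicle (SD, n = 3 each), a log2 fold change of -1.39 (SE 0.53, edgeR adjusted p = 0.684).

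The beta globin gene ba1, whose chain pairs with alpha globin, had 678, 403 and 253 CPM in hormone libraries, against 1216, 441 and 1519 CPM in vehicle libraries. As for hbaa1, hormone replicate 1 lay between vehicle replicate 2 and the other vehicle libraries. The means were 445 ± 215 CPM with hormone and 1059 ± 556 CPM with vehicle (SD, n = 3 each), a log2 fold change of -1.25 (SE 0.54, edgeR adjusted p = 0.738).

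The second alpha globin gene, hbaa2, had 2.80, 3.96 and 3.30 CPM in hormone libraries, against 20.1, 3.43 and 27.8 CPM in vehicle libraries. The hormone libraries lay close together, and vehicle replicate 2 lay among them, while the vehicle libraries spanned 8.11-fold from lowest to highest. These levels rest on 21, 48 and 32 counts with hormone and 254, 38 and 278 counts with vehicle. The log2 fold change of -2.34 (SE 0.70, edgeR adjusted p = 0.528) was the lowest of the 6. Its means were 3.35 ± 0.583 CPM with hormone and 17.1 ± 12.5 CPM with vehicle (SD, n = 3 each).

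Summed over hbaa1, hbaa2 and ba1, globin stood at 1355, 830 and 534 CPM in hormone libraries, against 2530, 937 and 3370 CPM in vehicle libraries. The mean was 906 ± 415 CPM with hormone and 2279 ± 1235 CPM with vehicle (SD, n = 3 each), 2.51-fold lower with hormone, and between 1.91-fold and 3.34-fold lower with any single library left out. The vehicle SD exceeded the hormone mean, and the groups overlapped. Globin counts made up 97.0% to 97.7% of the counts of the 6 genes in hormone libraries, against 97.2% to 98.2% in vehicle libraries.

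The globin genes stand close together on chromosome 3 of the RefSeq table of assembly GRCz12tu, where ba1l, hbaa1 and hbba1 follow each other in that order after hbaa2 and hbba2. Globin copies are close in sequence, and the sources used here do not give how reads shared between copies were counted. The split of counts among hbaa1, hbaa2, ba1 and the copy hbba2 is therefore uncertain.

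The anion exchanger gene slc4a1a had 7.47, 7.10 and 3.91 CPM in hormone libraries, against 29.1, 8.75 and 24.7 CPM in vehicle libraries. All hormone libraries lay below all vehicle libraries, although vehicle replicate 2 was only 1.17-fold above the highest hormone library. The means were 6.16 ± 1.96 CPM with hormone and 20.9 ± 10.7 CPM with vehicle (SD, n = 3 each), a log2 fold change of -1.76 (SE 0.48, edgeR adjusted p = 0.457). In a two-sided exact permutation test p was 0.1, the lowest value possible with 3 libraries a group.

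The gene alas2, for the red cell form of the first heme synthesis enzyme, had 17.9, 13.6 and 7.72 CPM in hormone libraries, against 34.0, 9.29 and 28.6 CPM in vehicle libraries. Vehicle replicate 2 lay below hormone replicates 1 and 2. The means were 13.1 ± 5.1 CPM with hormone and 24.0 ± 13 CPM with vehicle (SD, n = 3 each), a log2 fold change of -0.88 (SE 0.51, edgeR adjusted p = 0.852).

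The regulator gene gata1a had 6.80, 4.71 and 2.37 CPM in hormone libraries, against 9.12, 2.16 and 8.70 CPM in vehicle libraries. Vehicle replicate 2 was the lowest of all 6 libraries for this gene, with 24 counts, and hormone replicate 3 was next, with 23 counts. The means were 4.63 ± 2.22 CPM with hormone and 6.66 ± 3.90 CPM with vehicle (SD, n = 3 each), a log2 fold change of -0.54 (SE 0.60, edgeR adjusted p = 0.959). Among the 6 genes this was the log2 fold change nearest to 0.

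**Figure D1:**
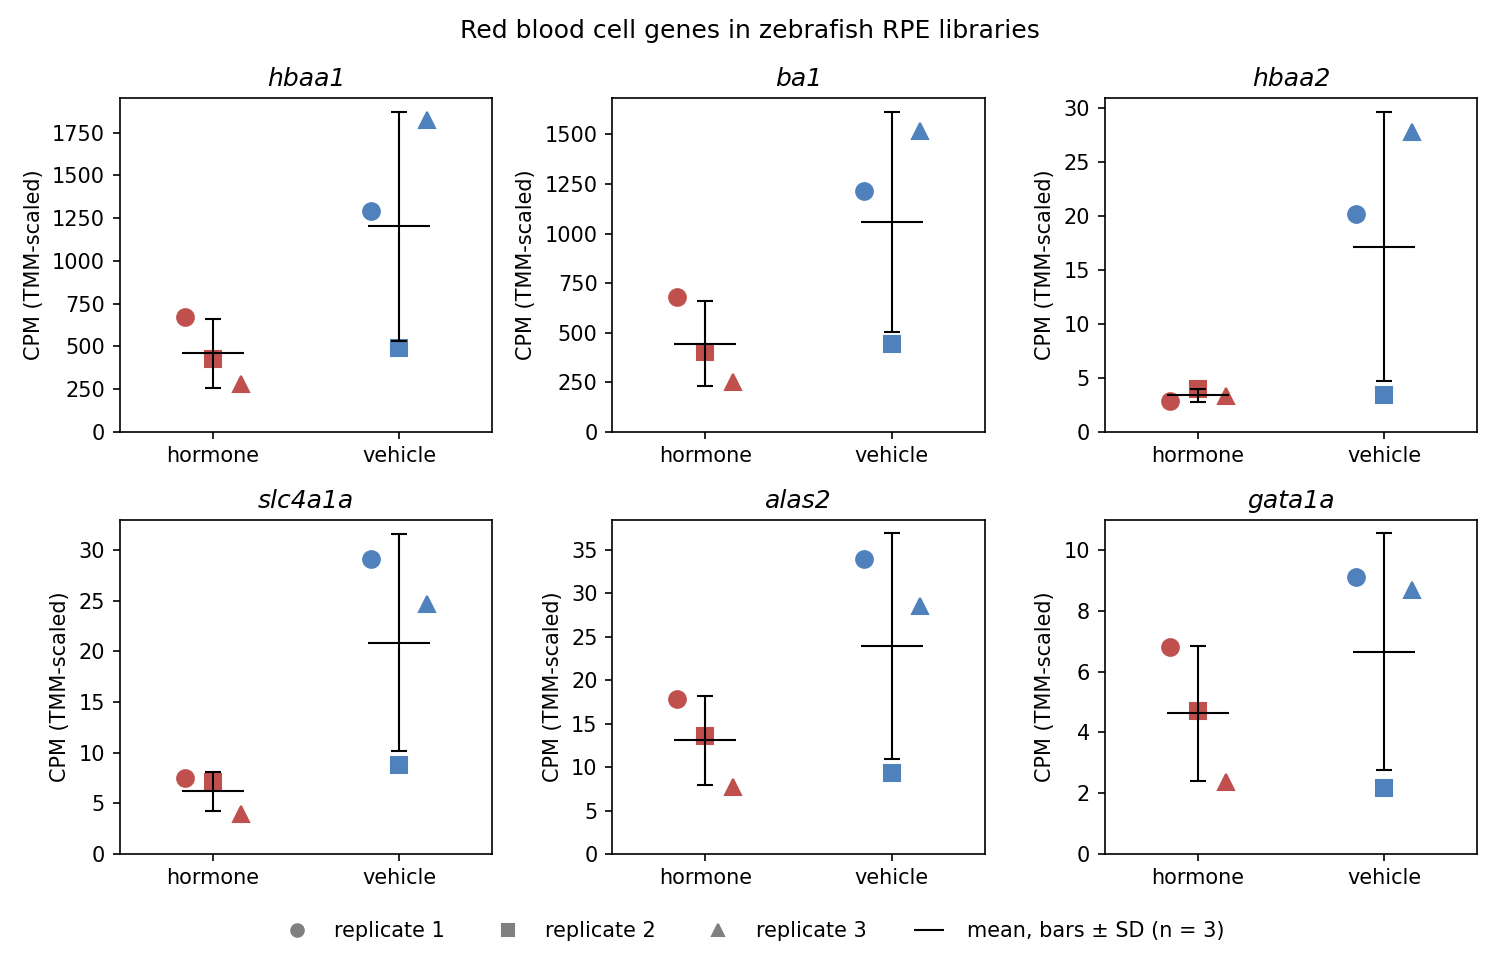
Levels of 6 red blood cell genes (vertical axes, CPM with TMM scaling, each starting at 0) in the 3 hormone libraries (red, left) and the 3 vehicle libraries (blue, right), with the replicate number as the marker shape and the group mean ± SD in black (n = 3). Vehicle replicates 1 and 3 stand highest in every panel, and vehicle replicate 2 lies among or below the hormone libraries in all panels but that of slc4a1a.

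On a scale per length, RPKM (CPM per kilobase of transcript, from counts, the deposited lengths and scaled totals), the genes differed far more than the libraries did. The gene hbaa1 stood at 1129, 708 and 466 RPKM with hormone and 2167, 825 and 3053 RPKM with vehicle. By RPKM hbaa1 ranked 28, 71 and 124 of the 18315 records in hormone libraries, against 14, 46 and 14 in vehicle libraries. The RPKM of ba1 was close behind, at 1051, 625 and 392 with hormone and 1886, 684 and 2355 with vehicle, and hbaa1 exceeded it between 1.07-fold and 1.3-fold in all 6 libraries.

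The other 4 genes lay far lower per length. The second alpha globin gene hbaa2 averaged 5.85 ± 1.02 RPKM with hormone and 29.9 ± 21.7 RPKM with vehicle (SD, n = 3 each). The level of hbaa1 was between 61.6-fold and 231-fold that of hbaa2 within a library. For alas2 the mean was 5.15 ± 2.01 RPKM with hormone and 9.44 ± 5.12 RPKM with vehicle. For gata1a it was 2.73 ± 1.31 RPKM with hormone and 3.93 ± 2.30 RPKM with vehicle, and for slc4a1a 1.77 ± 0.563 RPKM with hormone and 5.99 ± 3.08 RPKM with vehicle. In the hormone libraries the RPKM ranges of hbaa2 and alas2 overlapped, as did those of gata1a with both alas2 and slc4a1a. In vehicle libraries the ranges of all pairs among hbaa2, alas2, slc4a1a and gata1a overlapped except those of hbaa2 and gata1a, and within each vehicle library hbaa2 stood highest of these 4 and gata1a lowest.

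Ratios between genes within a library do not depend on how the library total was scaled, and all 15 pairs of the 6 genes were compared. The steadiest pair was hbaa1 over ba1, whose CPM ratio was 0.995, 1.05 and 1.1 in hormone libraries, against 1.06, 1.12 and 1.2 in vehicle libraries, a span of 1.21-fold, while hbaa1 itself spanned 6.56-fold over the libraries. In 7 of the 15 pairs the ratios of the groups did not overlap. Of these, 5 were the ratios to gata1a, which stood lower in the hormone libraries. The narrowest was alas2 over gata1a, at 2.63, 2.89 and 3.26 with hormone, against 3.73, 4.29 and 3.29 with vehicle. Among all other records, 0.683% had a ratio to gata1a that did not overlap between the groups. The counts of gata1a in hormone replicate 3 and vehicle replicate 2 were 23 and 24, and all 5 ratios share them.

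The ratio of slc4a1a to alas2 was 0.418, 0.521 and 0.507 in hormone libraries, against 0.855, 0.942 and 0.864 in vehicle libraries. The vehicle libraries agreed within 0.0476 (SD), vehicle replicate 2 included, although its alas2 level lay within the hormone range. The means were 0.482 ± 0.0559 with hormone and 0.887 ± 0.0476 with vehicle (SD, n = 3 each). As a share of the summed counts of both genes, slc4a1a made up 29.5%, 34.3% and 33.6% with hormone and 46.1%, 48.5% and 46.3% with vehicle. The exact 95% binomial intervals, which cover counting error only, were 23.1% to 36.5%, 28.4% to 40.5% and 25.0% to 43.1% with hormone and 42.6% to 49.6%, 41.4% to 55.7% and 42.0% to 50.7% with vehicle.

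This ratio was singled out among the 15 after its values were seen. Relative to alas2, 2.17% of all other records had groups that did not overlap, and 0.109% had all hormone libraries below all vehicle libraries. Relative to slc4a1a the share that did not overlap was 47.6%. In the two-sided exact permutation test p was 0.1 for each of the 7 pairs, the lowest possible at this size, and 0.214 adjusted over the 15 pairs. The remaining pair of the 7 was alas2 over hbaa1, at 0.0265, 0.0322 and 0.0278 in hormone libraries, against 0.0263, 0.0189 and 0.0157 in vehicle libraries, where 10.6% of records had a ratio to hbaa1 that did not overlap. Hormone replicate 1 and vehicle replicate 1 were almost equal in it.

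**Figure D2:**
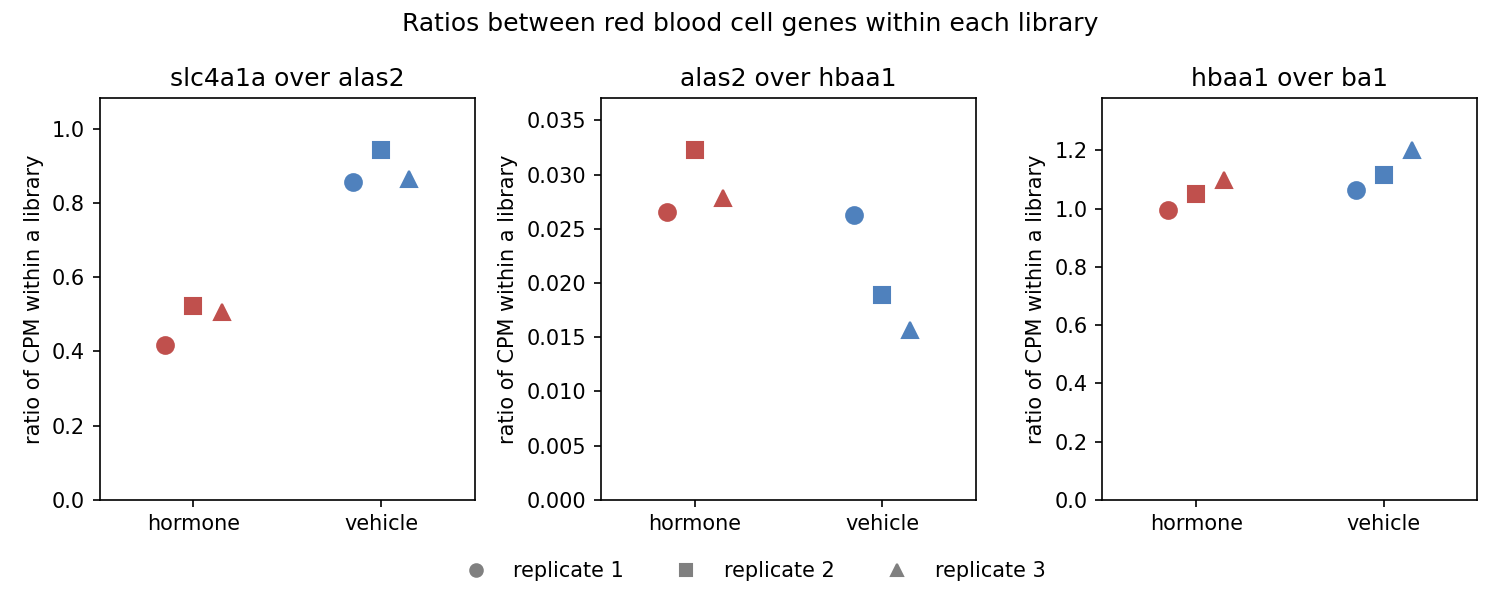
Ratios of CPM between 2 red blood cell genes within each library (vertical axes, each starting at 0) in the hormone libraries (red, left) and the vehicle libraries (blue, right), with the replicate number as the marker shape. The ratio of slc4a1a to alas2 lies between 0.418 and 0.521 with hormone and between 0.855 and 0.942 with vehicle, while hbaa1 over ba1 stays between 0.995 and 1.2 in all 6 libraries.

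Records with the profile most like that of the 6 genes were found from the log2 CPM of each record, centred on its own mean over the 6 libraries. Likeness was the root mean square difference from the mean centred profile of the 6 genes, over 16445 other records whose log2 CPM averaged 1 or more. The median record differed by 0.958 on the log2 scale. The closest was hbba2 (zgc:92880 in the file), a further adult beta globin gene, at 0.111. It had 4.80, 3.72 and 2.06 CPM in hormone libraries, against 11.2, 3.79 and 13.8 CPM in vehicle libraries, with vehicle replicate 2 inside the hormone range. These levels rest on 422 counts over all libraries, against 47841 for ba1. How far reads shared with ba1 enter them was not tested, so the match need not be independent of ba1. The closest records were picked by this profile, so a low vehicle replicate 2 in them is no separate result.

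The 8 closest records included 2 genes of the red cell membrane skeleton. The gene epb41 (now epb41b), for protein 4.1, which ties spectrin to actin, differed by 0.341 and had 45.8, 31.5 and 13.7 CPM in hormone libraries, against 79.1, 24.3 and 59.1 CPM in vehicle libraries. The gene sptb, for beta spectrin, differed by 0.344 and had 27.4, 21.3 and 9.58 CPM in hormone libraries, against 43.7, 16.1 and 37.3 CPM in vehicle libraries. In both genes vehicle replicate 2 lay below hormone replicates 1 and 2, as it did for alas2, a likeness that the choice by profile favours.

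The other 5 closest records were LOC100538223 at 0.197, hif1al2, named as a hypoxia-inducible factor gene, at 0.242, traf3ip3 (LOC100534789) at 0.271, LOC100536159 at 0.345 and ifi44f1 (si:ch211-197g15.10) at 0.354. None of the 8 passed the edgeR test over all records, with adjusted p from 0.506 for LOC100538223 to 0.915 for ifi44f1. In the authors' deposited table LOC100538223 passed, with an adjusted p of 0.0417 computed from its p-values. Among the 6 genes themselves the difference from their mean profile ran from 0.174 for ba1 to 0.576 for hbaa2, for which hormone replicate 1 was the lowest of all libraries.

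**Figure D3:**
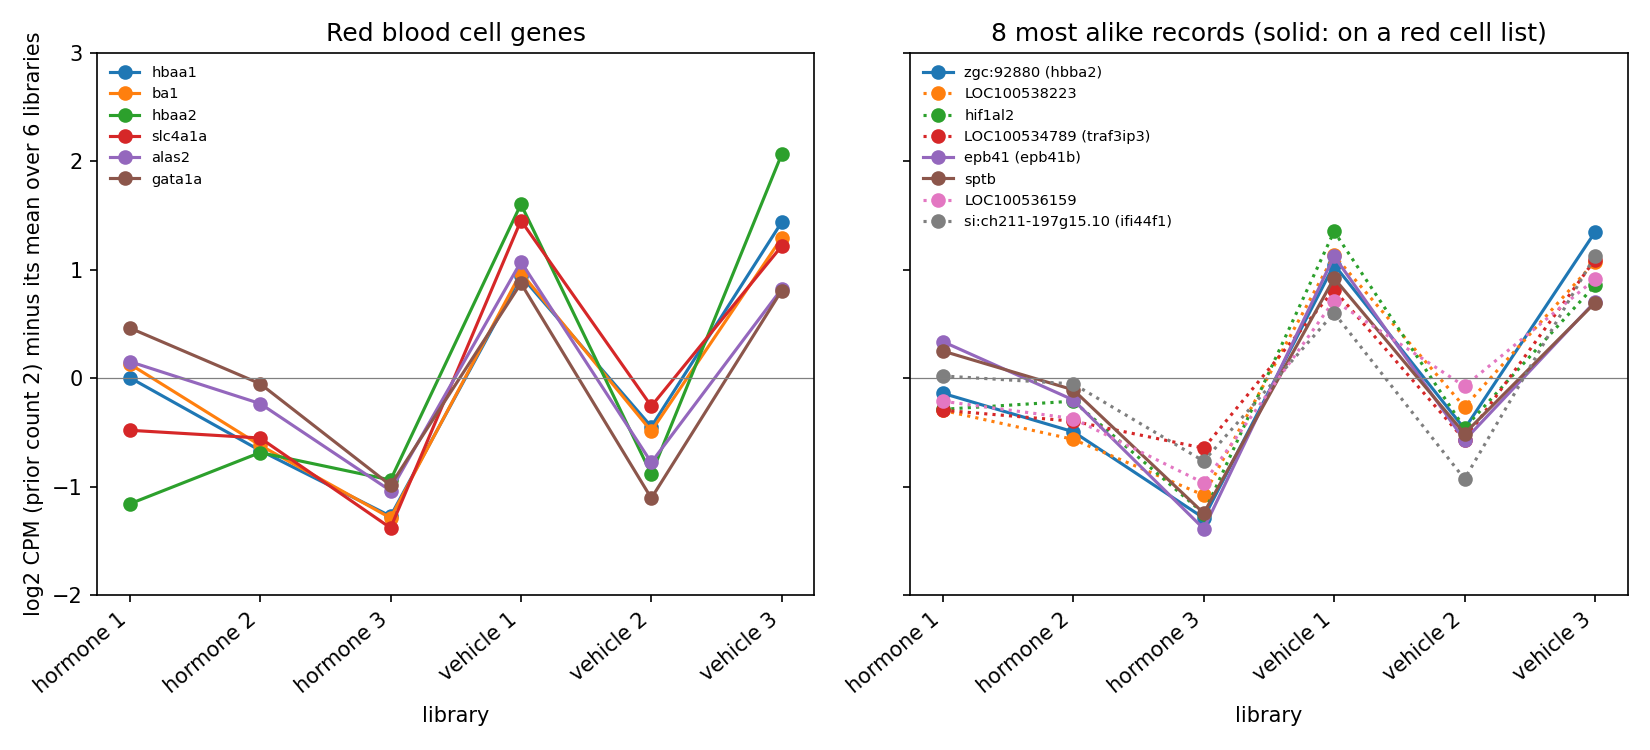
Log2 CPM (prior count 2) minus its mean over the 6 libraries (vertical axis) for the 6 red blood cell genes (left panel) and the 8 records most like them (right panel), with the libraries along the horizontal axis. Lines only join the points of a gene. All profiles peak in vehicle replicates 1 and 3 and lie below their mean in vehicle replicate 2 and hormone replicate 3. The records of the right panel were chosen for this profile, and its solid lines are hbba2, epb41 and sptb.

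Of a wider set of 78 measured genes of hemoglobin, heme, iron and red cell structure, none passed the edgeR test over all records (lowest adjusted p = 0.350), limma voom called 0 and DESeq2 called 1. At an unadjusted p under 0.05 were 6 of the 78 (7.69%), near the 6.88% of all records at that p. Log2 fold changes of hormone over vehicle were above 0 in 35 and below 0 in 43, with a median of -0.02, against 0.01 over all records. Vehicle replicates 1 and 3 were the highest 2 libraries in 10 of the 78 (12.8%) and in 5.57% of all records, against all 6 red cell genes, an order noticed after the values were seen. By list, the 10 were 4 of 12 membrane and skeleton genes and 3 of 22 iron and heme handling genes. The rest were 2 of 6 further globin records and 1 of 20 regulators.

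Among 6 further globin records, 3 log2 fold changes were above 0 and 3 below, and 2 had an unadjusted p under 0.05. These were hbba2 (log2 fold change -1.45, SE 0.53, edgeR adjusted p = 0.657) and hbae4, listed as zgc:163057 and named as an embryonic alpha globin gene (log2 fold change -1.31, SE 0.53, edgeR adjusted p = 0.715). The level of hbae4 was low, at 1.41 ± 0.755 RPKM with hormone and 3.49 ± 1.21 RPKM with vehicle (SD, n = 3 each). Myoglobin, mb, an oxygen-binding globin best known from muscle, had another order of libraries. It stood at 919, 2354 and 3356 CPM in hormone libraries, against 1350, 1367 and 2149 CPM in vehicle libraries, with a log2 fold change of 0.45 (SE 0.48, edgeR adjusted p = 0.957).

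Of 9 other heme synthesis genes, 7 had log2 fold changes above 0 and 2 below, with a median of 0.32 and none at an unadjusted p under 0.05. The ubiquitous first enzyme gene, alas1, stood at 103 ± 36.0 RPKM with hormone and 74.0 ± 9.68 RPKM with vehicle (SD, n = 3 each; log2 fold change 0.47, SE 0.29, edgeR adjusted p = 0.864). It was thus more abundant per length than alas2 in both groups. The gene fech, for the enzyme that inserts iron to form heme, stood at 24.4 ± 8.07 RPKM with hormone and 19.2 ± 3.18 RPKM with vehicle. In none of these 9 genes were vehicle replicates 1 and 3 the highest 2 libraries, an order found in 5.57% of all records.

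Of 22 genes of iron and heme handling, 12 had log2 fold changes above 0 and 10 below, with a median of 0.01. At an unadjusted p under 0.05 were slc11a2, for a ferrous iron importer (log2 fold change 0.54, SE 0.20, edgeR adjusted p = 0.663), and blvra (zgc:153046), for biliverdin reductase, which makes bilirubin from a heme breakdown product (log2 fold change 0.47, SE 0.19, edgeR adjusted p = 0.693). The ferritin heavy chain genes fth1a and fth1b, for the iron storage protein, stood at 434 ± 60.3 and 37.8 ± 6.78 RPKM with hormone and 540 ± 57.1 and 48.5 ± 10.5 RPKM with vehicle (SD, n = 3 each). Of the 22 genes fth1a had the highest mean in both groups.

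Of 12 genes of the red cell membrane and its skeleton, 5 had log2 fold changes above 0 and 7 below, with a median of -0.13. The glucose transporter gene slc2a1b, which many tissues use, was the gene DESeq2 called, at an adjusted p of 0.0165, and the authors' deposited table marks it as well. It had 45.4, 102.6 and 81.05 CPM in hormone libraries, against 178, 172 and 187 CPM in vehicle libraries (log2 fold change -1.23, SE 0.29, edgeR adjusted p = 0.350). Here vehicle replicate 2 stood with the other vehicle libraries, unlike in the 6 red cell genes. Its paralog slc2a1a stood at 185 ± 55.7 RPKM with hormone and 152 ± 49.95 RPKM with vehicle.

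Of 9 genes on the list of red cell enzymes, 4 had log2 fold changes above 0 and 5 below, with none at an unadjusted p under 0.05. The list includes blf, not itself an enzyme gene, and the median of -0.03 was its value. The carbonic anhydrase gene ca2 stood at 150.1 ± 56.4 RPKM with hormone and 254 ± 56.8 RPKM with vehicle (SD, n = 3 each; log2 fold change -0.76, SE 0.34, edgeR adjusted p = 0.760). The vehicle libraries of ca2 had 1382, 968 and 944 CPM, so vehicle replicate 2 was not the lowest of them, unlike in the 6 red cell genes. The hormone libraries of ca2 had 368, 792 and 789 CPM, all below the vehicle libraries, as in 6.4% of all records. Which cells the ca2 RNA came from was not tested. The peroxiredoxin gene prdx2 stood at 147.9 ± 52.3 RPKM with hormone and 118 ± 6.87 RPKM with vehicle. Vehicle replicates 1 and 3 were the highest 2 libraries in 0 of these 9 genes. With 9 genes, a count of 0 does not stand apart from the 5.57% of all records in that order.

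Of 20 further regulators of red cell formation, 4 had log2 fold changes above 0 and 16 below, with a median of -0.20. Over all records 48.3% lay below 0. Which cells the RNA of these 20 genes came from was not tested. The gene klfd (now klf1), for a Kruppel-like factor of red cell precursors, was at an unadjusted p under 0.05, with 8.67, 9.91 and 5.87 CPM in hormone libraries, against 9.91, 15.8 and 12.9 CPM in vehicle libraries (log2 fold change -0.66, SE 0.27, edgeR adjusted p = 0.716). Vehicle replicate 2 was the highest library for klfd, the reverse of its place in the 6 red cell genes. The LIM domain-binding cofactor genes ldb1a and ldb1b were the most abundant, at 45.3 ± 12.8 and 33.9 ± 2.14 RPKM with hormone and 40.7 ± 5.37 and 41.2 ± 5.23 RPKM with vehicle (SD, n = 3 each).

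**Figure D4:**
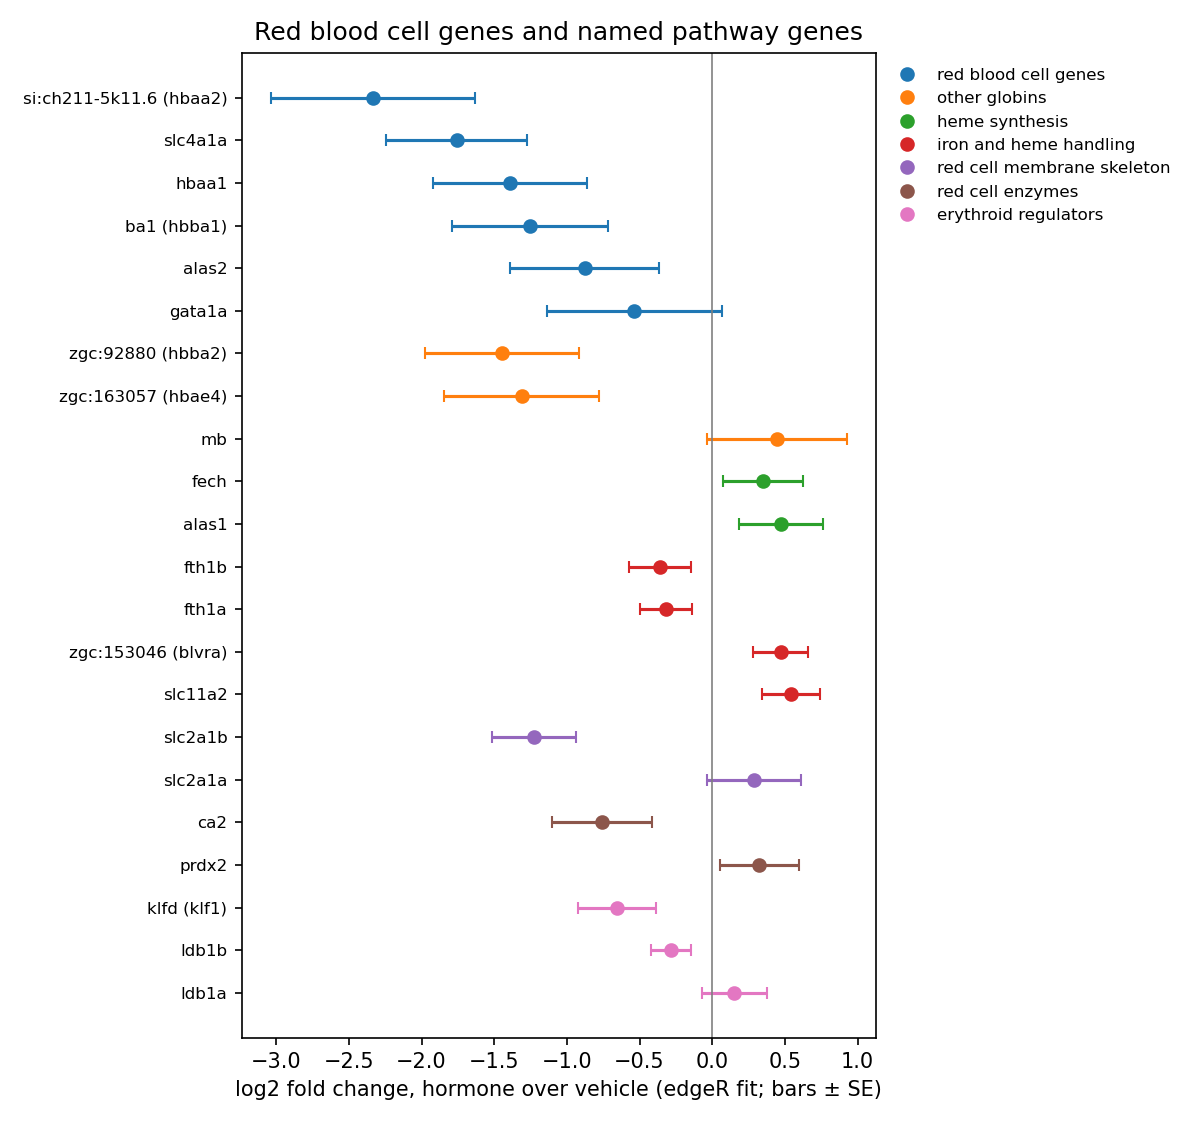
Fitted log2 fold change of hormone over vehicle (horizontal axis, bars ± SE) of the 6 red blood cell genes and 16 named genes of the wider lists (vertical axis), coloured by list. All 6 red cell genes and both hbba2 and hbae4 lie left of 0, between -0.54 and -2.34. The genes slc2a1b, ca2, klfd, fth1a, fth1b and ldb1b lie left of 0 as well. Right of it lie mb, alas1, fech, slc11a2, blvra, slc2a1a, prdx2 and ldb1a.

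Markers of other blood and vessel cells were measured in the same libraries, and their part in the red cell levels was not tested. The 14 measured leukocyte genes summed to 424, 638 and 553 CPM in hormone libraries, against 582, 639 and 908 CPM in vehicle libraries. Of their log2 fold changes, 12 of 14 lay below 0, against 48.3% of all records. Vehicle replicate 3 was the highest library in that sum, while vehicle replicate 1, also rich in globin, lay within the range of the others. The 14 measured endothelial genes summed to 189, 65.1 and 84.5 CPM with hormone and 97.9, 83.0 and 92.2 CPM with vehicle, and hormone replicate 1 was highest. Of 4 measured thrombocyte genes, 2 had log2 fold changes above 0 and 2 below. The gene gp1bb, for a platelet receptor subunit, had 16.7, 12.6 and 10.9 CPM with hormone and 19.6, 9.74 and 22.4 CPM with vehicle. The gene f13a1a.1 (zgc:152982), for a coagulation factor XIII chain, ran the other way, at 19.2, 3.39 and 3.60 CPM with hormone and 2.78, 2.53 and 2.0 CPM with vehicle. The edgeR test gave it a log2 fold change of 1.81 (SE 0.73, adjusted p = 0.701). The groups did not overlap, and hormone replicate 1 stood far above the rest. The integrin gene itgb3b, with only 114 counts over all libraries, had log2 fold change -0.41 and the thrombospondin gene thbs1 0.04. The vehicle libraries stood in the same order as for hbaa1 in gp1bb, itgb3b and thbs1, and in another order in f13a1a.1. The share of all records in that order was not counted here, so no likeness is drawn from the match. In the hormone libraries only gp1bb kept the order of hbaa1. The gene thbs1 had 362, 1047 and 946 CPM with hormone, against 740, 677 and 878 CPM with vehicle. All 4 thrombocyte genes summed to 399, 1063 and 963 CPM with hormone, against 764, 690 and 905 CPM with vehicle. Most of that sum was thbs1, and which cells its RNA came from was not tested. None of the measured markers of these 3 cell types was at 0 counts in any library. The same held for the measured genes of all other lists, so it does not set these cell types apart. The 20 endothelial, 18 leukocyte and 8 thrombocyte symbols led to 14, 14 and 4 distinct records. The leukocyte symbols mpeg1 and mpeg1.1 led to the same record.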

How the data were processed

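Zebrafish RPE was dissected, RNA was taken with a column kit including DNase, and libraries were made with an amplification kit and run in a shared lane, per the labels' protocols. Bowtie 0.12.7 and edgeR are named in the submitters' processing notes, per the labels. The sources used here do not give the transcript set or build. The authors deposited raw counts per transcript record, which were used for all tests. They also deposited per library a score, which is RPKM rounded to whole numbers, a group mean RPKM, and the log2 fold change, log2 mean CPM and p-value of their edgeR test. That fold change runs vehicle over hormone, so signs were reversed here. An unnamed row equal to the sum of all others was left out. The bullfrog table carries no gene names and was not used here.

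Genes were matched by the symbol in the file, and clone names were replaced, by accession, with symbols from the RefSeq GRCz12tu table, which holds 12528 of 18315 accessions. Of records with a common symbol, the most abundant was taken. The genes, lists and tests were chosen with earlier results of these data known. The main test was edgeR 4.0.16 (quasi-likelihood, R 4.3.3) with filterByExpr, TMM scaling and Benjamini-Hochberg adjustment over all records at 0.05. The SE is the size of the log2 fold change over the square root of F. RPKM here is TMM-scaled CPM per kilobase. A level of 3 counts equals 0.238 to 0.400 CPM. Alternatives were RLE and total count scaling, DESeq2 1.42.0, limma 3.58.1 voom, a replicate block, no filter on low counts, each library left out and the authors' test. The fits were tested on simulated counts. Replicates of a group differed beyond sampling noise (chi-square per degree of freedom 15.7 to 77.5). Named genes were the 6 members, genes of the wider lists at an unadjusted p under 0.05 or among the 2 highest by mean RPKM, and the 8 records most alike. The thrombocyte genes were named after their values were seen. Promoter motifs were not analysed here.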

Additional observations from a re-analysis of the deposited data

How the results depend on the processing

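The count of the 6 red cell genes called was 0 in the main test and 2 with DESeq2 and with the authors' deposited test. It stayed 0 with RLE scaling, total count scaling, limma voom, no filter and each library left out. Without the filter the named genes had the values of the main fit, so that setting was no separate check. For the wider set of 78 genes the count was 0, against 1 with DESeq2 and 1 with the authors' test. Over all records the count was 1, against 8 with total count scaling, 292 with DESeq2, 171 with the authors' test, 0 with limma voom and between 0 and 105 with a library left out. With the replicate number as a block the counts were 0, 0 and 0 for the red cell genes, the wider set and all records. The labels do not give whether the replicate numbers pair the samples. Same-numbered libraries deviated together with correlations of 0.463, -0.395 and 0.105, which cannot decide this with 3 libraries a group. With the block the log2 fold change of slc4a1a was -1.64 and that of hbaa2 -1.97. All 6 red cell genes kept a log2 fold change below 0 in all 13 alternatives. The log2 fold change of slc4a1a ran from -2.13 to -1.44 and that of gata1a from -0.95 to -0.23 with a library left out. The ratio of summed globin, hormone over vehicle, was 0.398 and ran from 0.299 to 0.523 with a library left out. Of the other named genes, ldb1a changed sign without hormone replicate 1 and ranged from -0.09997 to 0.2905 with a library left out. The causes of these changes were not tested. With 3 libraries a group, and vehicle libraries that span from 3.33-fold for slc4a1a to 8.11-fold for hbaa2, the spread between vehicle libraries limits the precision more than the depth does for hbaa1 and ba1.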

Other observations

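Leukocyte genes were lower with hormone in 12 of 14 cases, against 48.3% of all records. None was called in the edgeR test over all records (lowest adjusted p = 0.663). The 2 higher ones were mpx and lyz. The gene lyz had 1.33, 1.57 and 2.37 CPM in the hormone libraries and 0.79, 1.17 and 0.90 CPM in the vehicle libraries. These levels rest on 84 counts over all libraries (log2 fold change 0.88, SE 0.38, edgeR adjusted p = 0.748). At an unadjusted p under 0.05 and lower were 3 of the 14, against 3.18% of all records. These were csf1ra, for a macrophage growth factor receptor, spi1 (now spi1b), for a myeloid transcription factor, and fcer1gl, for an Fc receptor chain. The gene spi1 had 14.8, 18.7 and 18.8 CPM in the hormone libraries and 22.7, 23.4 and 22.9 CPM in the vehicle libraries. Its vehicle libraries lay close together, with vehicle replicate 2 among them, unlike those of the globin genes. The gene csf1ra had 38.2, 75.1 and 69.4 CPM in the hormone libraries and 93.2, 81.3 and 117 CPM in the vehicle libraries. The groups did not overlap in 4 of the 14: csf1ra, spi1 and fcer1gl, lower with hormone, and lyz, higher with hormone. Among all records, 6.4% had all hormone libraries below all vehicle libraries. These genes were named after their values were seen.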
